A study of Mus musculus with 9 samples.

Results

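The 10 genes described here are the Notch receptors *Notch1*, *Notch2*, *Notch3* and *Notch4*, the ligands *Dll4*, *Jag1* and *Jag2*, and the Hey genes *Hey1*, *Hey2* and *Heyl*. They were taken by symbol from a table of 48820 genes, in which each of the 10 symbols stood once, and all 10 passed the filter of a mean of at least 1 FPKM (mapped fragments scaled to gene length and library depth) that left 13618 genes. The table holds RNA-seq of hearts of untreated wild-type C57BL/6J mice at E18.5d (embryonic day 18.5), P1d (postnatal day 1) and P7d (postnatal day 7), with 3 biological replicates at each stage. All 9 hearts are labelled male. The study collected these stages to follow gene expression and metabolism through the days around birth, and the comparisons below ask how the Notch genes changed over that time. The FPKM values were used as the authors deposited them.

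Notch receptors are membrane proteins that are activated by ligands on a neighbouring cell. Binding leads to cleavage of the receptor by ADAM proteases and gamma-secretase, and the released intracellular domain joins the DNA-binding protein RBPJ and a Mastermind protein to switch on target genes. The Hey proteins are basic helix-loop-helix repressors and classical targets of this complex. In the heart the pathway is known for its part in valve formation, trabeculation and the growth of coronary vessels. *Dll4* and *Notch4* are mainly genes of vascular endothelium, *Notch3* and *Heyl* of smooth muscle cells and pericytes, *Hey1* of atrial and *Hey2* of ventricular myocardium and arteries.

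Promoter windows of RefSeq (GRCm38.p6, 250 bases before to 50 after a transcription start) were found for 8 of the 10 genes, all but *Hey1* and *Heyl*. They were searched on both strands for GTGGGAA, the core of the sequence that RBPJ binds, and for AGGAAG, a core of sites of the ETS factors that are active in endothelium. GTGGGAA was present in 6.38% of all 32851 windows and in 1 of the 8, that of *Hey2*, which holds it at 2 places. The first starts 207 bases before the RefSeq start and the second starts 4 bases before it and runs across it. AGGAAG stood in 35.4% of all windows and in 1 of the 8, that of *Notch4*. The *Hey2* sequence is shown because *Hey2* had the largest change of the 10 genes, followed by those of *Notch4*, *Dll4* and *Jag1*, which were lowest at P1d. Capitals mark GTGGGAA or AGGAAG, or their reverse complements, each sequence reads 5′ to 3′ on the gene's strand, and bases inside an annotated exon of a protein-coding gene are left out, except for the 27 bases around the second *Hey2* match, which lie in exon 1 of *Hey2* in GENCODE M21.
*Hey2*, chr10:30842802-30843033, minus strand: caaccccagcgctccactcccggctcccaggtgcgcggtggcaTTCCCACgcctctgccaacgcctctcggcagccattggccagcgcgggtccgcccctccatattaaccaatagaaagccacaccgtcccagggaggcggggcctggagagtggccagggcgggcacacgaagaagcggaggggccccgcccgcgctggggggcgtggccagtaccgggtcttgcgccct
*Hey2*, second match, chr10:30842771-30842797, minus strand: gggctgcagcGTGGGAAagaacctcca
*Notch4*, chr17:34564045-34564267, plus strand: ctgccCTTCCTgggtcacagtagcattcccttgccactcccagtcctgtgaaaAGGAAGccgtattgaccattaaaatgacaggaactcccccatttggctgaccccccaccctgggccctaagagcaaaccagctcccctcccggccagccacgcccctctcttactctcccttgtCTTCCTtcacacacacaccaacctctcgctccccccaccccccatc
*Dll4*, chr2:119325534-119325783, plus strand: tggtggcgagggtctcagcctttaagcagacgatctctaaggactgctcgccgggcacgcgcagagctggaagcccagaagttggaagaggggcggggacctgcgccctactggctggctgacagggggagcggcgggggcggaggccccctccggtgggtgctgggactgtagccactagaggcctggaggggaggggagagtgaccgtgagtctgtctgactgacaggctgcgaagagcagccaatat
*Jag1*, chr2:137116645-137116770, minus strand: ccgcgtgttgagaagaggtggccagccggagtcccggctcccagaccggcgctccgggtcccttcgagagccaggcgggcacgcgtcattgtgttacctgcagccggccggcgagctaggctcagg
A motif match is only a match of letters, and no binding was measured here.

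*Hey2* is also the member for which the study lists a primer pair for quantitative PCR. The forward primer lies in exon 1 and the reverse primer in exon 2 of the *Hey2* transcript, both inside the coding sequence, and they span 126 bases of the transcript. They are shown because they name the part of the transcript in which *Hey2* can be measured apart from RNA-seq.
*Hey2* forward primer: aagcgcccttgtgaggaaac
*Hey2* reverse primer: ggtagttgtcggtgaattggac

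The depth of each heart, read from the steps between low FPKM values, was 25.5 to 45.0 times 1e6 fragments. At that depth the 10 genes rested on 400 fragments (*Dll4* in P1d replicate 3) to 15885 fragments (*Notch1*). Cardiomyocyte markers such as *Tnnt2* and *Myh6* were present in every heart, with a summed level of 6 markers of 13950 to 19520 FPKM, and the thymocyte markers *Rag1*, *Rag2* and *Ptcra* were under 0.1 FPKM in all. *Xist*, which is expressed in female cells, was at 82.57 and 97.03 FPKM in E18.5d replicates 1 and 3 and at 58.03 and 69.96 FPKM in P7d replicates 2 and 3, against 0.11 FPKM or less in the other 5 hearts. Those 4 libraries go against their label. Airway genes (*Scgb1a1*, *Scgb3a1*, *Scgb3a2*, with the lung genes *Sftpb* and *Sftpc*) summed to 90.79 and 251.2 FPKM in E18.5d replicates 1 and 2 and 491.7 FPKM in P1d replicate 1, and to 3.13 FPKM or less in the other hearts. The members' values without either set of hearts are given where a call changes.

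Within a stage the receptors kept an order of levels. At E18.5d the mean level fell from *Notch1* (22.8 ± 1.84 FPKM, SD, n = 3) through *Notch2* (18.9 ± 0.658 FPKM) and *Notch3* (13.3 ± 0.913 FPKM) to *Notch4* (8.43 ± 1.01 FPKM), and no neighbours in this order overlapped. The order was the same at P1d. At P7d *Notch3* (19.1 ± 0.297 FPKM) stood beside *Notch2* (17.9 ± 0.833 FPKM), and the hearts of these 2 genes overlapped. Among the 3 ligands *Jag1* was the most abundant at each stage and *Jag2* the least, and *Dll4* and *Jag2* overlapped at P1d. The Hey genes changed places. *Hey2* led at E18.5d and P1d, *Heyl* led at P7d, and at P7d *Hey2* overlapped *Hey1* at the bottom. Averaged over the 9 hearts, the 10 genes ranged from 4.6 FPKM (*Jag2*, above 31.1% of the genes tested) to 23.2 FPKM (*Notch1*, above 75.8%).

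**Figure D1:**
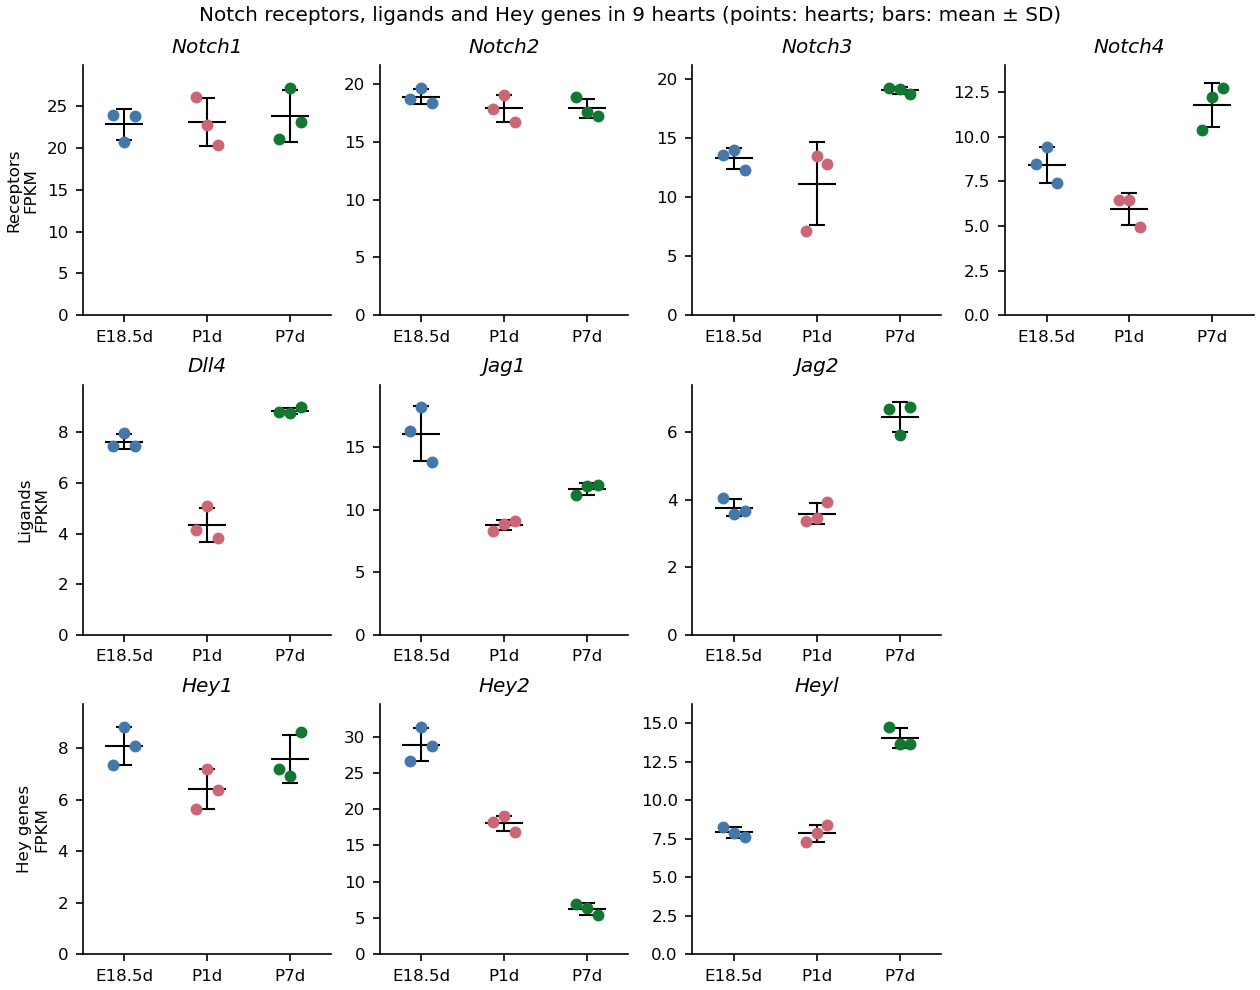
FPKM (vertical axes, from 0) of the 10 genes in each heart (points) at E18.5d, P1d and P7d, with the mean and SD of 3 hearts. *Notch4*, *Dll4* and *Jag1* are lowest at P1d, with no overlap between its hearts and those of the other stages. *Hey2* falls from 28.9 to 6.24 FPKM on average between E18.5d and P7d. *Notch3*, *Jag2* and *Heyl* are highest at P7d, as are *Notch4* and *Dll4*.

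From E18.5d to P1d no member rose and 5 of the 10 fell: *Notch4*, *Dll4*, *Jag1*, *Hey1* and *Hey2*. All genes were fitted together with limma, and an adjusted p (Benjamini-Hochberg over 13618 genes) under 0.05 was called a change. In this comparison 46.0% of all genes were called, 27.6% as lower. The members' median difference was -0.29 in log2(FPKM + 1), against -0.06 over all genes. From P1d to P7d 6 of the 10 rose (*Notch3*, *Notch4*, *Dll4*, *Jag1*, *Jag2* and *Heyl*) and 1 fell (*Hey2*), while 44.2% of all genes were called, 15.5% as higher and 28.6% as lower. Here the members' median was 0.54, against -0.09 over all genes. Between P7d and E18.5d 3 of the 10 were higher (*Notch4*, *Jag2* and *Heyl*) and 2 lower (*Jag1* and *Hey2*), while 49.4% of all genes were called, 12.5% as higher and 36.9% as lower. The medians were 0.12 for the members and -0.17 for all genes. Since the FPKM columns were left on the authors' scale, the same fit was made after median-of-ratios scaling, which set the median of all genes at P7d against E18.5d to 0.01. The share of genes called higher and lower then became 23.6% and 22.3% from E18.5d to P1d, 23.5% and 18.2% from P1d to P7d, and 23.2% and 18.7% between P7d and E18.5d. The first 2 comparisons share the P1d hearts and the last shares its hearts with both. Hearts did not overlap for 54.4% of all genes from E18.5d to P1d and for 53.6% from P1d to P7d. Between P7d and E18.5d this was so for 62.5%, and a lack of overlap named below stands beside these shares.

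Without the 4 hearts that carry *Xist*, E18.5d and P7d had 1 heart each, and 2 of the 10 genes were called lower at P1d than at E18.5d, *Jag1* (-0.98) and *Hey2* (-0.77), beside 4.29% of all genes. The other members called in the full set were at -0.75 (*Dll4*), -0.59 (*Notch4*) and -0.41 (*Hey1*). From P1d to P7d only *Hey2* was called (-1.26), beside 1.31% of all genes, and the members called higher in the full set differed by 0.88 (*Dll4*), 0.84 (*Heyl*), 0.78 (*Notch3*), 0.74 (*Jag2*), 0.72 (*Notch4*) and 0.32 (*Jag1*), with adjusted p-values of 0.0609 to 0.247. Without the 3 hearts that carry airway genes E18.5d had 1 heart, and *Notch4* and *Hey1* were no longer called lower at P1d. The 5 members called lower at P1d and the 7 called from P1d to P7d in the full set kept their direction. The members' median difference was -0.18 from E18.5d to P1d and 0.42 from P1d to P7d, against -0.04 and -0.09 over all genes. *Notch4* and *Hey1* also lost their calls at P1d without E18.5d replicate 2 alone.

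**Figure D2:**
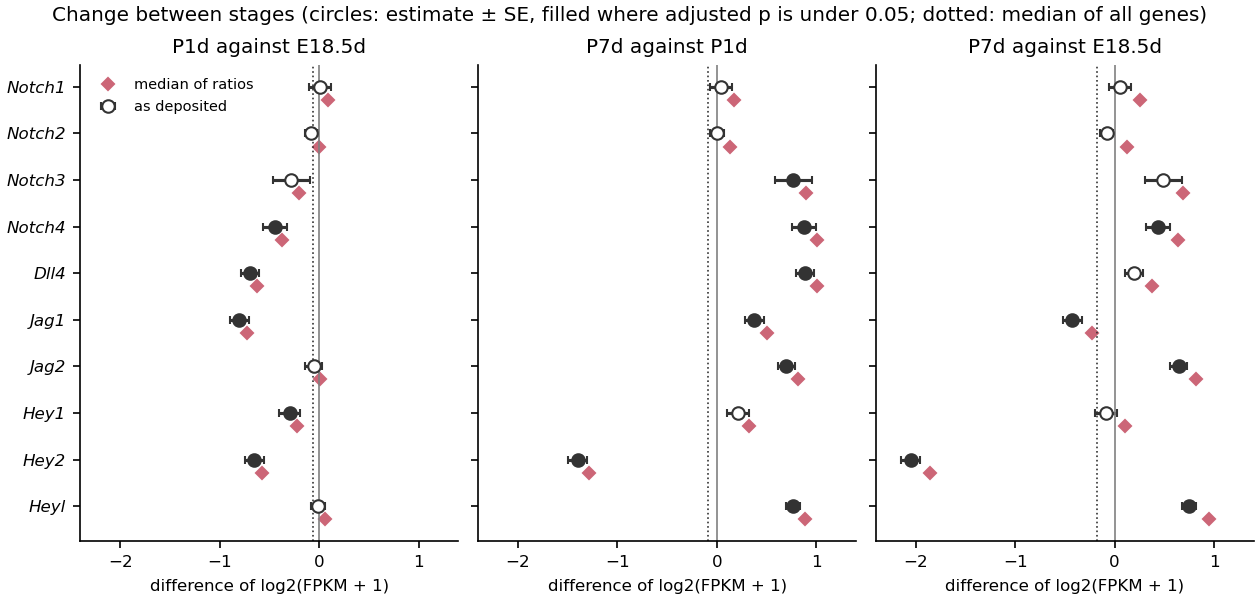
Difference in log2(FPKM + 1) (horizontal axes) of each gene in the 3 comparisons: circles give the limma estimate ± SE on the deposited scale, filled where the adjusted p is under 0.05, diamonds the estimate after median-of-ratios scaling, and the dotted line the median of all genes. *Hey2* lies furthest left in both comparisons with P7d (-1.40 and -2.05), and *Notch4* and *Dll4* cross from left to right of 0 between the first comparison and the second.

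*Hey2*, a repressor of the atrial gene programme in ventricular muscle, fell at both steps. It was at 26.7, 31.35 and 28.72 FPKM in the E18.5d hearts, at 18.17, 19.05 and 16.91 FPKM in the P1d hearts and at 6.92, 6.38 and 5.41 FPKM in the P7d hearts. No heart of one stage overlapped those of another. The difference in log2(FPKM + 1) was -0.65 ± 0.093 (SE) from E18.5d to P1d (limma, adjusted p = 0.000468), -1.40 ± 0.093 from P1d to P7d (adjusted p = 1.31e-05) and -2.05 ± 0.093 over the whole interval (adjusted p = 5.30e-07). At P7d its mean level was 0.216 times that at E18.5d, and 35 of the 13618 genes (0.257%) had a larger decrease. In whole hearts, fewer cells that express a gene and less of its RNA per cell cannot be told apart. The decrease stayed past the threshold in each of 22 refits in each comparison. In the 5 hearts without *Xist* it was -2.03 over the whole interval (adjusted p = 0.0205), where 1.42% of all genes were called, and in the 6 hearts without airway genes it was -2.04 (adjusted p = 0.00131).

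*Hey1*, whose product is close to that of *Hey2* and marks atrial muscle, changed little. It was at 7.35, 8.82 and 8.09 FPKM at E18.5d, at 5.64, 7.2 and 6.38 FPKM at P1d and at 7.17, 6.91 and 8.63 FPKM at P7d. The P1d hearts lay just under the E18.5d hearts and overlapped the P7d hearts. Its decrease to P1d, -0.30 ± 0.11 in log2(FPKM + 1), was barely past the threshold (limma, adjusted p = 0.0477) and was lost in 14 of 22 refits, with adjusted p-values of 0.0145 to 0.353. Neither the difference from P1d to P7d (0.21, adjusted p = 0.143, called in 2 of 22 refits) nor that between P7d and E18.5d (-0.09, adjusted p = 0.532) was called, and the sign of the last turned after median-of-ratios scaling. The atrial markers *Myl7*, *Myl4*, *Sln*, *Nppa* and *Bmp10* were lower at P7d than before birth in 5 of 5 cases, beside 36.9% of all genes. Their summed level was 6568 to 7741 FPKM at E18.5d and 3366 to 3588 FPKM at P7d. Of the ventricular markers *Myl2*, *Irx4* and *Myl3*, 1 of 3 was higher, beside 12.5% of all genes, and none lower. Their sum was 15900 to 17690 FPKM at E18.5d and 18410 to 20130 FPKM at P7d. The part of either group of cells in the values of *Hey1* and *Hey2* was not tested.

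*Heyl*, the Hey gene of smooth muscle cells and pericytes, rose after P1d. It was at 8.28, 7.9 and 7.58 FPKM at E18.5d and at 7.29, 7.86 and 8.38 FPKM at P1d, where the hearts overlapped. In the P7d hearts it was at 14.76, 13.63 and 13.68 FPKM, above all earlier hearts. From E18.5d to P1d the difference was -0.01 ± 0.071 in log2(FPKM + 1) (limma, adjusted p = 0.893), and it turned positive (0.06) after median-of-ratios scaling. The increase from P1d to P7d was 0.77 ± 0.071 (adjusted p = 5.90e-05) and that over the whole interval 0.75 (adjusted p = 3.87e-05). Without the 4 hearts that carry *Xist*, the increase over the whole interval was 0.82 and no longer called (adjusted p = 0.0836). *Hey2* and *Heyl* thus moved in opposite directions between P1d and P7d, and the test of their ratio to *Hey1* within each heart is given further on.

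*Notch3*, the receptor of smooth muscle cells and pericytes, was highest at P7d. It was at 13.59, 14.05 and 12.29 FPKM at E18.5d, at 7.13, 13.49 and 12.87 FPKM at P1d and at 19.28, 19.2 and 18.73 FPKM at P7d. P1d replicate 1 stood apart from the other P1d hearts, which lay within the E18.5d range. This is a heart with airway genes. Of 9 smooth muscle and pericyte markers in it, 4 lay above the range of the E18.5d hearts, 3 within it and 2 below it (*Cspg4* and *Cnn1*). The same 4 lay above that range, and the same 2 below it, in the other P1d hearts as well. From P1d to P7d *Notch3* rose by 0.77 ± 0.19 in log2(FPKM + 1) (limma, adjusted p = 0.00852), and without the 3 hearts that carry airway genes the increase was 0.50 (adjusted p = 0.00657). Between P7d and E18.5d the difference of 0.49 narrowly missed the threshold (adjusted p = 0.0514), although the hearts did not overlap, which was so for 62.5% of all genes in this comparison. It passed in 10 of 22 refits, among them the one without the hearts that carry airway genes (0.59, adjusted p = 0.0102).

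The same 9 markers were set beside *Notch3* and *Heyl*. From E18.5d to P1d, when neither gene was called, 4 of the 9 were higher (*Pdgfrb*, *Kcnj8*, *Abcc9* and *Vtn*) and 2 lower. Of all genes 18.4% and 27.6% were. From P1d to P7d 6 were higher and 2 lower, beside 15.5% and 28.6% of all genes. At P7d against E18.5d *Rgs5*, *Vtn*, *Abcc9*, *Kcnj8* and *Pdgfrb* were higher, the contractile genes *Tagln* and *Cnn1* lower, and *Myh11* and *Cspg4* not called. The summed level was 235.3 to 308.9 FPKM at E18.5d, 264.7 to 335.1 FPKM at P1d and 356.0 to 381.3 FPKM at P7d. None of the 9 was at 0 in any heart, and *Vtn*, the lowest, was at 0.81 FPKM or more. *Rgs5*, for example, was at 30.46, 45.14 and 28.89 FPKM at E18.5d and at 105.87, 98.89 and 103.68 FPKM at P7d. The part of these cells in the increase of *Notch3* and *Heyl* was not tested.

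*Notch4*, a receptor of endothelial cells, was lowest at P1d and highest at P7d. It was at 8.45, 9.43 and 7.41 FPKM at E18.5d, at 6.48, 6.48 and 4.94 FPKM at P1d and at 10.4, 12.24 and 12.73 FPKM at P7d, with no overlap between stages. The decrease to P1d was -0.44 ± 0.12 in log2(FPKM + 1) (limma, adjusted p = 0.0147), and the increase from P1d to P7d was 0.88 ± 0.12 (adjusted p = 0.000438). Without E18.5d replicate 2 the decrease was -0.36 and no longer called (adjusted p = 0.058). At P7d it was 0.44 above E18.5d (adjusted p = 0.0135). This call was lost when E18.5d replicate 3 was left out (0.36, adjusted p = 0.0518), when P7d replicate 3 was left out (0.39, adjusted p = 0.0506) and without either set of hearts that stand apart.

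*Notch1*, the receptor of endothelium and endocardium, and *Notch2* were not called in any comparison. *Notch1* was at 23.95, 20.69 and 23.81 FPKM at E18.5d, at 26.12, 22.71 and 20.38 FPKM at P1d and at 21.12, 27.17 and 23.11 FPKM at P7d. *Notch2* was at 18.71, 19.67 and 18.41 FPKM, at 17.88, 19.06 and 16.75 FPKM and at 18.85, 17.6 and 17.27 FPKM in the same order. For both genes each stage overlapped the others. Their differences ranged from -0.08 to 0.05 in log2(FPKM + 1), with SEs of 0.113 for *Notch1* and 0.0661 for *Notch2* and adjusted p-values (limma) of 0.359 to 0.987. The receptors changed unequally, and of the summed receptor FPKM the share of *Notch2* went from 29.8% ± 0.95 (SD, n = 3) at E18.5d to 24.7% ± 2.07 at P7d, that of *Notch3* from 20.9% ± 1.08 to 26.3% ± 1.26 and that of *Notch4* from 13.3% ± 1.41 to 16.2% ± 1.4, with no overlap between the stages. The share of *Notch1*, 36.0% ± 3.16 and 32.7% ± 2.71, overlapped.

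*Dll4*, the ligand of arteries and growing capillaries, fell to P1d and then rose. It was at 7.46, 7.97 and 7.48 FPKM at E18.5d, at 4.14, 5.11 and 3.82 FPKM at P1d and at 8.82, 8.76 and 8.99 FPKM at P7d, with no overlap between stages. It fell by 0.70 ± 0.090 in log2(FPKM + 1) to P1d (limma, adjusted p = 0.000271) and rose by 0.89 ± 0.090 from P1d to P7d (adjusted p = 9.51e-05), when 357 of the 13618 genes had a larger increase. Between P7d and E18.5d the difference of 0.19 was not called (adjusted p = 0.106), and 5 of 22 refits called it, among them median-of-ratios scaling (0.38) and the fit without P1d replicate 2.

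*Jag1*, a ligand found on endothelial and smooth muscle cells, fell to P1d and regained part of its level. It was at 16.3, 18.18 and 13.78 FPKM at E18.5d, at 8.32, 8.84 and 9.11 FPKM at P1d and at 11.14, 11.87 and 11.99 FPKM at P7d. The stages did not overlap. The decrease to P1d was -0.80 ± 0.093 in log2(FPKM + 1) (limma, adjusted p = 0.000145) and stayed past the threshold in 22 of 22 refits. It rose by 0.38 from P1d to P7d (adjusted p = 0.00964) and ended 0.725 times as high as at E18.5d (-0.42, adjusted p = 0.00454). That last call was lost after median-of-ratios scaling (-0.23, adjusted p = 0.0715), without the hearts with *Xist* (-0.66, adjusted p = 0.101) and without those with airway genes (-0.22, adjusted p = 0.153).

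*Jag2*, the lowest of these 3 ligands, changed only after P1d. It was at 4.06, 3.57 and 3.67 FPKM at E18.5d, at 3.37, 3.46 and 3.94 FPKM at P1d and at 6.68, 5.93 and 6.74 FPKM at P7d. The E18.5d and P1d hearts overlapped and the P7d hearts lay above both. Its increase from P1d to P7d was 0.70 ± 0.086 in log2(FPKM + 1) (limma, adjusted p = 0.000246) and that from E18.5d to P7d 0.64 (adjusted p = 0.000291). Without the hearts with *Xist* neither was called, at 0.74 (adjusted p = 0.0785) and 0.75 (adjusted p = 0.113), and without those with airway genes both were (0.66 and 0.67). The summed FPKM of the 3 ligands was 24.93 to 29.72 at E18.5d, 15.83 to 17.41 at P1d and 26.56 to 27.72 at P7d. At P7d that sum was thus within the E18.5d range, with *Jag1* at 43.3% of it instead of 58.3%.

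A gene was said to dip when it was called lower at P1d than at E18.5d and higher at P7d than at P1d. This was so for 8.95% of all genes (1219 of 13618) and for 3 of the 10 members, *Notch4*, *Dll4* and *Jag1*. *Dll4* and *Jag1* kept the dip in 21 of 22 refits and *Notch4* in 18. No P1d heart carried *Xist*, while E18.5d replicates 1 and 3 and P7d replicates 2 and 3 did, so this difference has the shape of a dip. With the *Xist* covariate *Dll4* and *Jag1* dipped, beside 5.48% of all genes, and *Notch4* did not. The refit of the 5 hearts without *Xist* called no member, and 0.125% of all genes, as dipping. Of the 10 endothelial markers, *Kdr* and *Flt1*, both VEGF receptors, also dipped. Of the others 3 were called higher at P1d than at E18.5d (*Pecam1*, *Tie1* and *Egfl7*) and 5 were not called. *Kdr* was at 59.65 to 64.93 FPKM at E18.5d, at 46.72 to 49.17 FPKM at P1d and at 81.71 to 86.95 FPKM at P7d.

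Ratios between members within a heart do not depend on how the columns are scaled. The ratio of *Hey2* to *Hey1* was 3.55 to 3.63 in the E18.5d hearts, 2.65 to 3.22 in the P1d hearts and 0.627 to 0.965 in the P7d hearts. *Heyl* stood to *Hey1* as 0.896 to 1.13 at E18.5d and as 1.58 to 2.06 at P7d. In the summed FPKM of the 3 Hey genes, *Hey2* went from 64.3% ± 1.12 (SD, n = 3) at E18.5d through 55.9% ± 2.51 at P1d to 22.4% ± 2.50 at P7d, while *Heyl* went from 17.7% ± 1.65 through 24.3% ± 1.87 to 50.4% ± 0.931. The ratio of *Dll4* to *Jag1* was 0.438 to 0.543 at E18.5d, 0.419 to 0.578 at P1d and 0.738 to 0.792 at P7d, and that of *Jag2* to *Jag1* was 0.196 to 0.266, 0.391 to 0.433 and 0.5 to 0.6. Of 18 comparisons (6 ratios between 3 pairs of stages), 14 had no overlap between hearts. An exact two-sided permutation test of 3 hearts against 3 cannot go below p = 0.1, and the lowest adjusted p over the 18 was 0.129, so none could pass the threshold.

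**Figure D3:**
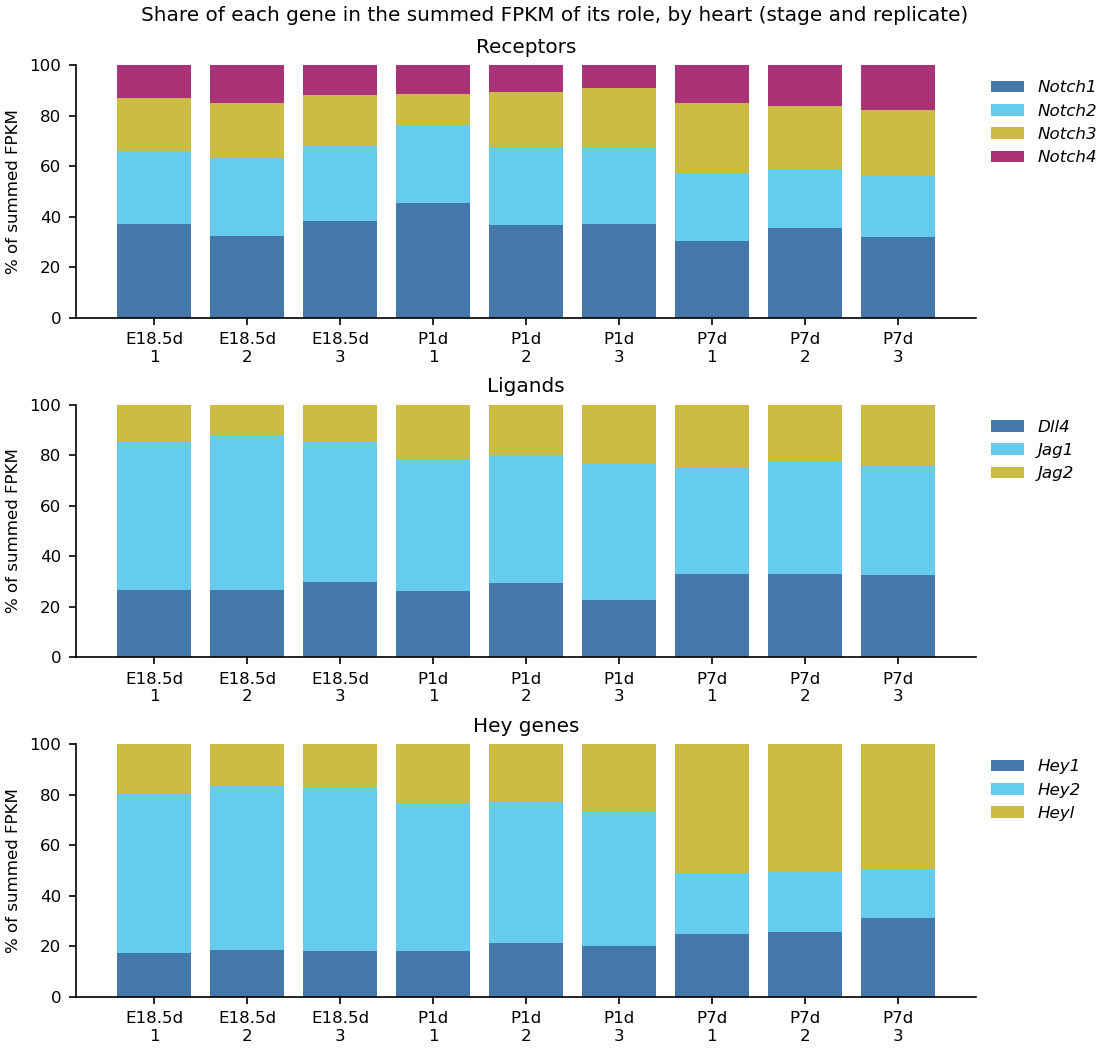
Share of each gene (vertical axis, percent) in the summed FPKM of the receptors, the ligands and the Hey genes, 1 bar per heart. *Hey2* takes 64.3% of the Hey genes on average at E18.5d and 22.4% at P7d, and *Jag1* goes from 58.3% to 43.3% of the ligands.

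Since *Dll4*, *Notch1* and *Notch4* are genes of endothelium, the members were set beside 10 endothelial markers (*Pecam1*, *Cdh5*, *Tek*, *Tie1*, *Kdr*, *Flt1*, *Erg*, *Egfl7*, *Esam* and *Robo4*). Of these 8 were higher and 1 lower at P7d than before birth, beside 12.5% and 36.9% of all genes. Their summed level was 440.2 to 482.4 FPKM at E18.5d, 523.0 to 573.1 FPKM at P1d and 609.8 to 633.7 FPKM at P7d. At P1d against E18.5d 3 of the 10 were higher and 2 lower (*Kdr* and *Flt1*), beside 18.4% and 27.6% of all genes, and 5 were not called. The part of these cells in the values of the members was not tested. The mean log2(FPKM + 1) of the list was subtracted from that of each member in the same heart, as a description with no test. On this scale *Dll4* was 0.65 higher at P7d than at P1d, *Notch4* 0.65, *Notch3* 0.535, *Heyl* 0.531 and *Jag2* 0.464. *Jag1* was 0.142 higher, with overlapping hearts. The other members were lower, from -0.025 (*Hey1*) to -1.635 (*Hey2*). Against E18.5d the relative level of *Dll4* fell by 0.845 at P1d, that of *Jag1* by 0.95 and that of *Notch4* by 0.59. At P7d *Hey2* was lower than at E18.5d by a relative difference of -2.43, *Jag1* by -0.81, *Hey1* by -0.47 and *Notch2* by -0.46. *Heyl* was 0.37, *Jag2* 0.26 and *Notch3* 0.11 above its E18.5d level, and *Notch4* 0.06 above it with overlapping hearts. *Dll4* was below it on this scale, at -0.19, where its FPKM was above.

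**Figure D4:**
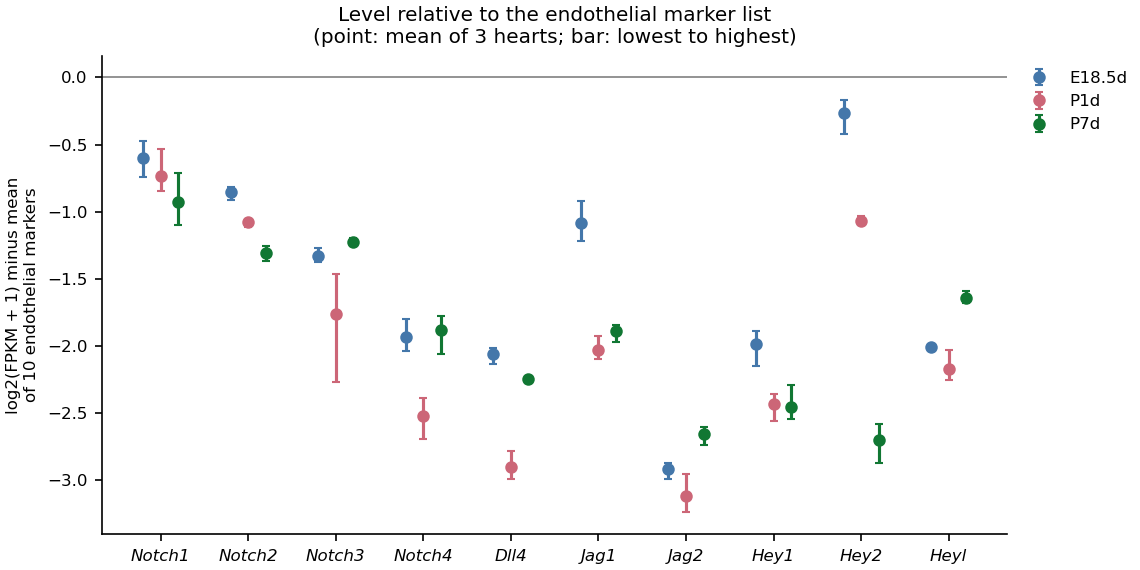
log2(FPKM + 1) of each gene minus the mean of the 10 endothelial markers in the same heart (vertical axis) at E18.5d, P1d and P7d, with the mean of 3 hearts and the lowest and highest heart. *Hey2* drops at each stage (a difference of -2.43 in all). The means of *Notch3*, *Notch4*, *Dll4*, *Jag1*, *Jag2* and *Heyl* are lowest at P1d. There the hearts of *Jag1* overlap those at P7d, and the hearts of *Jag2* overlap those at E18.5d.

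Of the other vascular lists, the endocardial and arterial sums were lower at P7d and the venous sum was higher. Of 4 endocardial markers 3 were lower at P7d than before birth, beside 36.9% of all genes. Their sum was 45.6 to 50.3 FPKM at E18.5d and 23.06 to 25.6 FPKM at P7d. Of 6 arterial markers 3 were lower, beside 36.9% of all genes, and none higher. The sum was 94.75 to 104.7 FPKM at E18.5d, 84.78 to 89.05 FPKM at P1d and 66.98 to 73.55 FPKM at P7d. The decrease was largest for *Gja5*, at 37.31 to 42.52 FPKM at E18.5d and 15.76 to 19.8 FPKM at P7d. The 4 venous markers summed to 106.3 to 114.8 FPKM at E18.5d, 128.7 to 154.4 FPKM at P1d and 136.1 to 147.4 FPKM at P7d. Of them 1 was called higher at P7d and 2 lower. The 1 called higher was *Aplnr*, at 19.62 to 21.9 FPKM at E18.5d and 54.91 to 64.29 FPKM at P7d. *Efnb2*, which stands in the arterial list and among the Notch targets, was itself called lower at P1d than at E18.5d (-0.42, limma, adjusted p = 0.00521). The part of these cell types in the values of the members was not tested.

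Of 65 other genes of the pathway, grouped by role, 54 were tested. From E18.5d to P1d 18 rose and 17 fell, beside 18.4% and 27.6% of all genes. Between P1d and P7d 9 rose and 22 fell, beside 15.5% and 28.6%, and at P7d against E18.5d 9 were higher and 21 lower, beside 12.5% and 36.9%. After median-of-ratios scaling the counts were 19 and 14, 13 and 11, and 18 and 10, so that the balance of higher and lower turned in both comparisons with P7d. The medians on the deposited scale of the 54 were -0.01, -0.12 and -0.17, against -0.06, -0.09 and -0.17 over all genes. The role lists are small, and nothing is claimed for any of them against the other genes. The 19 pathway genes named by rule had 42 calls over the 3 comparisons. Without the hearts with airway genes 22 of these remained, and without those with *Xist* 3 did, the decrease of *Neurl1b* to P1d and those of *Dlk1* to P7d from either stage.

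**Figure D5:**
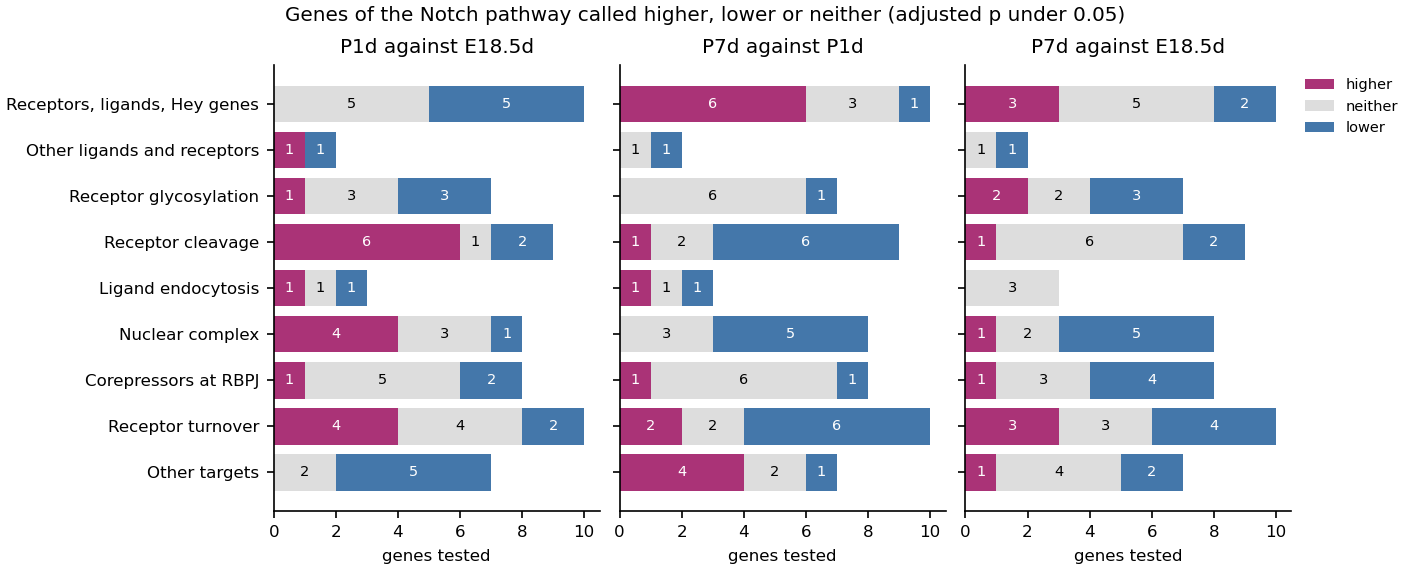
Number of genes tested (horizontal axes) in the 10 Notch genes and in 8 lists of other pathway genes that were called higher, neither or lower in the 3 comparisons. The 10 Notch genes rise most often from P1d to P7d (6 of 10, beside 15.5% of all genes). Of the cleavage, nuclear complex and turnover lists 6 of 9, 5 of 8 and 6 of 10 genes fall in that step, beside 28.6% of all genes. Nothing is claimed for these lists, and the balance of the pathway genes in that step turned after median-of-ratios scaling.

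Among genes that act on the ligand, *Neurl1b*, a ubiquitin ligase for Notch ligands, dipped most. It was at 13.42, 12.5 and 13.08 FPKM at E18.5d, at 3.43, 4.29 and 5.28 FPKM at P1d and at 10.72, 11.22 and 12.32 FPKM at P7d. It fell by 1.41 in log2(FPKM + 1) to P1d (limma, adjusted p = 2.10e-05) and rose by 1.23 to P7d (adjusted p = 6.46e-05). *Mib1*, the other main ligase of this step, went the opposite way, 0.26 higher at P1d (adjusted p = 0.00809) and 0.41 lower from P1d to P7d (-0.41, adjusted p = 0.00078). After rescaling to equal sums neither *Mib1* call held (0.09, adjusted p = 0.58, and -0.28, adjusted p = 0.106). *Dll1*, a further ligand, was at 1.66 to 2.31 FPKM at E18.5d, 2.65 to 3.52 FPKM at P1d and 2.15 to 3.17 FPKM at P7d. Its increase of 0.45 to P1d (adjusted p = 0.0256) was lost in 8 of 21 refits. *Dlk1*, a non-canonical ligand, had the largest decrease of the pathway genes, from 44.04 to 47.46 FPKM at E18.5d to 22.67 to 30.04 FPKM at P1d and 4.01 to 5.02 FPKM at P7d. The symbol *Dlk1* stands at more than 1 identifier in the annotation, and its value is that of the protein-coding gene.

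Cleavage and glycosylation genes moved in both directions. *Adam10*, the protease of the first activating cut, fell by 0.43 to P1d (limma, adjusted p = 0.00202) and was lower than at E18.5d at P7d as well (-0.46, adjusted p = 0.00132). *Psen2*, a catalytic subunit of gamma-secretase, was 0.51 higher at P1d (adjusted p = 0.00206) and fell by 0.47 to P7d (adjusted p = 0.00342). *Lfng*, a glycosyltransferase that changes how receptors respond to ligands, was 0.79 higher at P7d than before birth (adjusted p = 0.00395), at 6.41 to 8.66 FPKM against 2.91 to 4.48 FPKM.

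In the nuclear complex, *Rbpj* itself was at 20.53 to 21.5 FPKM at E18.5d, at 19.68 to 22.59 FPKM at P1d and at 17.04 to 19.35 FPKM at P7d, with a difference of -0.21 from P1d to P7d (limma, adjusted p = 0.036). This call was lost in 15 of 22 refits, including each of the 4 rescalings (-0.05 to -0.10). *Snw1* and *Maml3*, cofactors of RBPJ, each fell by 0.61 from P1d to P7d (adjusted p = 0.000231 and 0.000715). Of the corepressors, *Hdac2* was lower at P7d than before birth by a difference of -0.60 (adjusted p = 0.000763).

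Receptor turnover genes included *Fbxw7*, which marks the intracellular domain for degradation and was at 10.35 to 10.64 FPKM at E18.5d and 24.3 to 24.74 FPKM at P7d (1.15 higher in log2(FPKM + 1), limma, adjusted p = 1.25e-05). *Numb*, an inhibitor of Notch, dipped, at -0.46 to P1d (adjusted p = 0.00103) and 0.27 to P7d (adjusted p = 0.0159), the latter lost in 4 of 22 refits. *Dtx3* and *Dtx4*, of the Deltex family, were 0.65 and 0.56 higher at P1d than at E18.5d (adjusted p = 0.000123 and 0.000637).

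Of the other Notch targets, *Hes1*, a repressor of the same family of targets, was at 13.35 to 16.58 FPKM at E18.5d, 12.42 to 17.13 FPKM at P1d and 17.69 to 21.87 FPKM at P7d, and was 0.36 higher at P7d than before birth (limma, adjusted p = 0.0368), a difference not called in 8 of 22 refits, among them equal sums (0.32, adjusted p = 0.145). *Nrarp*, which feeds back on the Notch complex, was at 11.95, 12.51 and 11.98 FPKM at E18.5d, at 5.48, 4.62 and 7.03 FPKM at P1d and at 10.88, 9.13 and 10.17 FPKM at P7d. It fell by 0.99 to P1d (adjusted p = 0.000192) and rose by 0.73 to P7d (adjusted p = 0.00119). Of the 7 other targets tested, 5 fell to P1d, beside 27.6% of all genes. *Nrarp*, *Efnb2* and *Snai2* dipped, beside 8.95% of all genes, and *Snai2* was at 1.67 FPKM or less in every heart. *Nrg1*, a growth factor of endocardium, was lower at P7d than before birth by a difference of -0.66 (adjusted p = 0.000661).

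For each member the genes with the most similar profile over the 9 hearts were sought, by Pearson's r of log2(FPKM + 1). The hearts fall into 3 stages, so these values describe the profiles and carry no p. *Heyl* was followed most closely, by *Pxdn* (r = 0.999) and *Acat1* (r = 0.996), and *Hey2* by *Taf1d* and *Cdh3* (both r = 0.994), with 309 genes above 0.95. *Jag1* was closest to *Pask* (r = 0.994) and *Aunip* (r = 0.989), and *Jag2* to *Ankrd33b* (r = 0.993) and *Pcdh17* (r = 0.99). *Dll4* was closest to *Lrrc14b* (r = 0.983), *Notch4* to *Chst1* (r = 0.979) and *Tppp3* (r = 0.969), and *Notch3* to *Fam110a* (r = 0.976) and *Ppm1f* (r = 0.974). Of the remaining members *Notch2* had *Nelfb* (r = 0.98) and *Man1a* (r = 0.948), *Hey1* had *Atxn2l* (r = 0.926) and *Nsg1* (r = 0.92), and *Notch1* had *Inpp5a* (r = 0.888) and *Tmem267* (r = 0.88).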

How the data were processed

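RNA of 9 hearts of C57BL/6J mice, 3 each at E18.5d, P1d and P7d, was sequenced from total RNA. The table that the authors deposited gives FPKM to 2 decimals, with 1 column per heart. The submitters' processing notes name STAR and GRCm38 (mm10). The counting tool and the annotation are not given in the sources used here. FPKM are not counts, and the columns sum to 1347981 to 1794160.

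Of 48820 gene identifiers, 48058 were found, their versions removed, in GENCODE M21 (GRCm38). Depth was estimated from the spacing of low values, of which 76.0% to 82.9% came out as whole fragments, against 19.1% to 21.3% by chance. The precision of a value is that of its spread between 3 hearts. Values were transformed to log2(FPKM + 1), and the 13618 genes whose mean reached 1 FPKM entered a single limma fit of all 9 hearts (limma 3.58.1, R 4.3.3, eBayes with trend), with p-values adjusted by Benjamini-Hochberg and called under 0.05. A difference on this scale understates the change of low genes. In simulated data 200 of 13618 genes were shifted up or down by 1 on the log2 scale at P7d. The fit recovered 172 (86%) at P7d against E18.5d and 168 (84%) at P7d against P1d, with 9 and 16 other genes called. Smaller shifts were not simulated, and of the members only *Hey2* changed by more than 1. Ratios within a heart were compared with exact permutation tests in scipy 1.17.1 (Python 3.11.15, numpy 2.4.6, pandas 2.3.3), and figures were drawn with matplotlib 3.10.9.

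Alternative settings changed the pseudocount to 0.1, dropped the filter or raised it to 5 FPKM (which removes *Jag2*), and applied 4 rescalings (equal sum, equal sum without mitochondrial, haemoglobin and small structural RNA genes, median of ratios, quantile). Others were eBayes without trend, a fit of only the 2 stages compared, the replicate number as a block, a covariate for *Xist*, a minimum change of 1 on the log2 scale, and each heart omitted in turn. The fits without the hearts in which *Xist* exceeded 1 FPKM, or an airway gene 5 FPKM, were added after seeing the data. In the former E18.5d and P7d have 1 heart each, in the latter E18.5d has 1, and a lone heart is assumed to vary like the others. The members and gene lists were chosen with earlier results of these data known. Named pathway genes were *Rbpj*, *Hes1*, *Dll1*, *Mib1*, *Nrarp*, *Lfng*, *Adam10* and *Numb*, and for each comparison the 3 largest changes in each direction among called genes whose hearts did not overlap. For each member the 2 genes of highest r were named. Of the genes these rules name, 2 are not reported here. *Kdr*, *Flt1*, *Efnb2*, *Snai2* and the marker genes with values were named after their values were seen. Marker lists not described gave, at P7d against E18.5d, 4 of 6 cardiomyocyte genes higher and 1 lower, 2 of 6 fibroblast genes higher, 1 of 5 epicardial genes higher and 3 lower, 1 of 5 macrophage genes higher, 1 of 4 venous genes higher and 2 lower, and no erythroid gene of 4 called. In that comparison 12.5% of all genes were called higher and 36.9% lower. Promoter sequences and motif matches came from RefSeq (GRCm38.p6).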

Additional observations from a re-analysis of the deposited data

How the results depend on the processing

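The number of members called lower from E18.5d to P1d went from 5 to 3 with the *Xist* covariate and without the airway hearts, to 2 without the *Xist* hearts and to 0 when a log2 change of 1 was required, and was 3 to 5 with each heart left out in turn. The number higher from P1d to P7d (6) became 0 without the *Xist* hearts and with that minimum. Those above E18.5d at P7d (3) became 5 after equal sums without mitochondrial, haemoglobin and small structural RNA genes, after median of ratios, after quantile normalization and with only those stages fitted, and 0 without the *Xist* hearts and with the minimum change of 1. The number was 2 to 5 with each heart left out. Of all genes 12.5% were called higher and 36.9% lower at P7d against E18.5d. After median of ratios this was 23.2% and 18.7%, and after quantile normalization 21.3% and 21.4%. The members are not read apart from these shares. The number lower (2) became 1 after median of ratios, without either set of hearts and with the minimum change. Both subsets hold fewer hearts and also differ from the full set in *Xist* or airway genes, and the cause was not tested. The minimum change of 1 left 5.26% of all genes called from E18.5d to P1d. It left 4.08% from P1d to P7d and 4.77% at P7d against E18.5d. After equal sums 8.63% of all genes instead of 18.4% were called higher from E18.5d to P1d. In that setting 12.7% instead of 28.6% were lower from P1d to P7d, and 9.3% instead of 12.5% higher at P7d against E18.5d.

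The pathway genes called higher and lower from E18.5d to P1d (18 and 17) became 0 and 1 without the *Xist* hearts, 5 and 5 without the airway hearts, and 0 and 1 with the minimum change, and the higher ones 5 after equal sums. From P1d to P7d (9 and 22) they became 0 and 1, 5 and 14, and 1 and 1 in those settings, and the lower ones 7 after equal sums, 9 after equal sums without the named genes, 11 after median of ratios and 12 with the covariate. At P7d against E18.5d (9 and 21) they became 0 and 1, 5 and 9, and 1 and 1, the higher ones 5 after equal sums, 18 after median of ratios and 14 after quantile normalization, and the lower ones 13 after equal sums without the named genes and 10 after median of ratios.

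Of the changes called in the full set 1 reversed its sign, that of *Rbpj* at P7d against E18.5d (adjusted p = 0.0472), which became 0.0103 after median of ratios. The other differences that turned were not called. From E18.5d to P1d, *Notch1* became -0.155 after equal sums, -0.00204 after equal sums without the named genes and -0.14 without the airway hearts, *Notch3* 0.0932 without the airway hearts, *Jag2* 0.00656 (median of ratios), 0.0541 (quantile), 0.0042 (without *Xist* hearts) and 0.00736 (without airway hearts), *Heyl* 0.0561, 0.0774 (the same scalings) and 0.0875 (without airway hearts), *Rbpj* -0.146 (equal sum) and -0.0216 (covariate), and *Hes1* -0.149 (equal sum), -0.00053 (equal sum without the named genes), -0.138 (covariate) and -0.13 (without *Xist* hearts). From P1d to P7d, *Notch1* became -0.102 (covariate) and -0.115 (without *Xist* hearts), *Dll1* 0.017 (equal sum without the named genes) and 0.0738 (without *Xist* hearts), and *Adam10* 0.0991, 0.138, 0.103 and 0.0845 under the 4 scalings and 0.00556 without the *Xist* hearts. At P7d against E18.5d, *Notch1* became -0.00787 without the airway hearts, *Notch2* 0.0717, 0.125 and 0.0624 and *Hey1* 0.0518, 0.102 and 0.0644 (equal sum without the named genes, median of ratios, quantile), *Mib1* 0.0532 and 0.000732 (median of ratios, quantile), and *Numb* 0.0195 (median of ratios).

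With each heart left out in turn, the differences that turned ran from E18.5d to P1d from -0.0781 to 0.0934 (*Notch1*), -0.057 to 0.0321 (*Heyl*), -0.0188 to 0.0762 (*Rbpj*) and -0.075 to 0.142 (*Hes1*). From P1d to P7d they ran from -0.0529 to 0.132 (*Notch1*), -0.0426 to 0.0456 (*Notch2*), -0.1975 to 0.00486 (*Dll1*) and -0.1145 to 0.03935 (*Adam10*), and at P7d against E18.5d from -0.0415 to 0.133 (*Notch1*). The log2 ratio of *Dll4* to *Jag1* ran from -0.06415 to 0.167 and that of *Notch3* to *Notch1* from -0.536 to 0.06935, both from E18.5d to P1d. The log2 ratio of *Jag2* to *Jag1* from P1d to P7d was 0.43, and 0.32 with 1 added to each FPKM.

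The replicate numbers were not treated as a pairing: deviations of same-numbered hearts correlated at -0.0546 to 0.112, with 1 of 9 pairs above 0.1, and 8 of 18 matched best with their own number. With the replicate number as a block the counts of members called were the same in each comparison, and of the named genes 1 call was lost, that of *Hes1* from P1d to P7d (0.35, adjusted p = 0.0507).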
